A study of Mus musculus with 50 samples.

Results

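The serine and one-carbon metabolism genes followed here are the 8 genes Phgdh, Psat1, Psph, Shmt1, Shmt2, Mthfd1, Mthfd1l and Mthfd2, chosen by name from the 37701 genes of the deposited table. All 8 were in the table and all 8 had a mean RPKM (reads scaled to gene length and library size) of at least 0.5, the filter that 16733 genes passed. Their mRNA was measured in 50 mammary gland (MG) tumors of female p53R270H/+WAPCre mice, 10 tumors per group. Mice of every group carried the heterozygous p53 point mutation, which the WAPCre driver confines to the mammary epithelium. From 8 weeks of age they were injected under the skin every other day with vehicle, insulin, glargine, X10 or IGF1. The endpoint was a tumor of 1 cm3, and tissue was collected 24 h after dosing had ended. Glargine and X10 are insulin analogues with exchanged or added residues, and X10 and IGF1 are the compounds with a high affinity for the IGF1 receptor. The vehicle tumors are titled as untreated in the sample labels, and 1 IGF1 tumor, IFG1_132, has its group spelled in this way in its title. Only EMT-like tumors, which have the spindle-cell look of an epithelial-mesenchymal transition, with a latency close to the median of their group had been selected by the authors, so the 10 tumors of a group are not a random draw of its tumors. Tumors are named by their titles, which hold the group and the mouse number.

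Serine is made from the glycolytic intermediate 3-phosphoglycerate in a short chain of reactions, in which Phgdh oxidizes the intermediate, Psat1 transfers an amino group to it and Psph removes the phosphate. Shmt1 in the cytosol and Shmt2 in the mitochondrion turn serine into glycine and pass the released carbon to folate. The folate-bound carbon is oxidized in the mitochondrion by Mthfd2 and released as formate by Mthfd1l, and Mthfd1 takes it up again in the cytosol, where it serves the synthesis of purines, thymidylate and methionine. These genes are known to be highly expressed in many breast tumors, and several of them are known targets of the stress-responsive transcription factor Atf4.

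Recovered library sizes were between 26.6 and 51.9 M reads per tumor, with group medians between 35.4 M for X10 and 44.0 M for vehicle. Mesenchymal markers (Vim, Col1a1, Col1a2, Pdgfrb and Fn1) summed to between 3980 and 32400 RPKM and epithelial markers (Epcam, Cdh1, Krt8, Krt18 and Krt14) to between 9.01 and 5100 RPKM. Median epithelial sums were 363 RPKM in vehicle and 139 RPKM in IGF1 tumors. Median sums of the 5 adipocyte markers ran from 43.3 RPKM in insulin to 185 RPKM in glargine tumors, and those of the 5 skeletal muscle markers from 7.52 RPKM in IGF1 to 50.0 RPKM in X10 tumors. Median sums of the 5 leukocyte markers were 199 RPKM in vehicle tumors and between 237 and 279 RPKM in the other groups. The 5 endothelial markers had median sums between 79.4 and 89.4 RPKM, and those of the 5 milk protein genes ranged from 7.12 RPKM in vehicle to 129 RPKM in glargine tumors. In bulk tumors, fewer cells of a type and less RNA per cell cannot be told apart.

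Several of these genes have copies in the mouse genome, which bears on the values of Phgdh, Psat1 and Shmt2. A processed pseudogene is a reverse-transcribed copy of an mRNA, and reads from the gene and from such a copy can be exchanged by an aligner. GENCODE M21 held 23 genes whose transcripts matched that of Phgdh with at least 80% identity over at least 200 bases, 22 of them pseudogenes, and 7 of the 23 had a row in the deposited table. Psat1 and Shmt2 had 1 such pseudogene each, both with a row. Mthfd1l had 1 without a row, and Psph, Shmt1, Mthfd1 and Mthfd2 had none at this threshold. To show how near the copies are, a 90-base window of the coding sequence of each gene, the start-most without a gap in the alignment, is printed above the matching window of its copy (GENCODE M21, build GRCm38, sense strand), with the differing letters in capitals.
Phgdh, from coding base 1: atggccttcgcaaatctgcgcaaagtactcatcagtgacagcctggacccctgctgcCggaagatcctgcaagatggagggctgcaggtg
Copy of Phgdh: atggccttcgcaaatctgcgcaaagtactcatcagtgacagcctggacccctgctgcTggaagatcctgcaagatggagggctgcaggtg
Psat1, from coding base 106: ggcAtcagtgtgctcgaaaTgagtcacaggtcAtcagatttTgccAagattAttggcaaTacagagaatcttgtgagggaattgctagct
Copy of Psat1: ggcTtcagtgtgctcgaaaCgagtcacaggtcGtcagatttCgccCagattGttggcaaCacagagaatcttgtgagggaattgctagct
Shmt2, from coding base 75: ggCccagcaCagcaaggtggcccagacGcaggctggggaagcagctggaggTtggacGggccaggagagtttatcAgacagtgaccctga
Copy of Shmt2: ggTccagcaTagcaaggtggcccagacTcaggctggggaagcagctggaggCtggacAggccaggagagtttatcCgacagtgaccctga
The windows differed at 1 base for Phgdh, at 7 for Psat1 and at 6 for Shmt2.

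The Phgdh copy (ENSMUSG00000082280, named Gm7901 in the deposited table and Gm5847 in GENCODE M21) lies at chr3:65613589-65615183 and matched Phgdh with 96.2% identity over 1596 aligned bases. Its mean RPKM was 17.0, with values between 4.97 and 40.1. Reads assigned to it amounted to 23.5% of the reads assigned to Phgdh over the 50 tumors. The Psat1 copy (Gm12611, chr11:60816375-60817747, 90.7% identity) had a mean of 6.21 RPKM and 6.2% of the reads of Psat1, and the Shmt2 copy (Gm15544, chr7:80429210-80430740, 89.9% identity) had a mean of 1.73 RPKM and 3.7% of the reads of Shmt2. Across the 50 tumors, with group means removed, each of these copies was the gene whose log2 values were most like those of its parent, with a Pearson r of 0.92 for Phgdh, 0.84 for Psat1 and 0.91 for Shmt2. How many of these reads came from the parent genes was not tested.

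The level of the members was ranked after a correction of gene length, since RPKM values depend on the length used. The lengths recovered from the value steps of the table were far shorter than the mRNA for some members. For Phgdh the values had been divided by 643.5 bases, which is the median length of its annotated transcripts in GENCODE M21, whereas its longest coding transcript has 1893 bases. For Psat1 the recovered length was 588 bases against 2617 bases, for Psph 641 against 1733, for Mthfd2 561 against 2085 and for Shmt1 1283 against 2858. For Shmt2 (2305 and 2289 bases), Mthfd1 (3324 and 3241) and Mthfd1l (3602 and 3687) both lengths were alike. The length cancels in every comparison of 1 gene between tumors, but not in a comparison between genes.

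As deposited, Phgdh (median 194.2 RPKM) and Psat1 (159 RPKM) stood far above Mthfd2 (62.5 RPKM), Psph (39.0 RPKM), Shmt2 (25.9 RPKM), Shmt1 (16.9 RPKM), Mthfd1 (13.6 RPKM) and Mthfd1l (12.1 RPKM). Per longest coding transcript, medians over the 50 tumors were 66.0 for Phgdh, 35.6 for Psat1, 26.1 for Shmt2, 16.8 for Mthfd2, 14.4 for Psph, 14.0 for Mthfd1, 11.8 for Mthfd1l and 7.60 for Shmt1. The mitochondrial Shmt2 thus moved from rank 5 to rank 3, above Mthfd2 and Psph. On this scale Phgdh was above Psat1 in 45 of 50 tumors, Psat1 above Shmt2 in 40 (mean log2 ratio 0.35, SD 0.54), Shmt2 above Mthfd2 in 47 and Mthfd1l above Shmt1 in 45. Mthfd2 was above Psph in 33 tumors and Mthfd1 above Mthfd1l in 36, with mean log2 ratios of 0.26 (SD 0.45) and 0.27 (SD 0.52). Psph was above Mthfd1 in only 25 of 50 tumors, with a mean log2 ratio of 0.09 (SD 0.58), so that this pair of neighbours had no order across tumors. The SD is that of single tumors. Phgdh had the highest and Shmt1 the lowest median in each of the 5 groups on this scale.

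**Figure D1:**
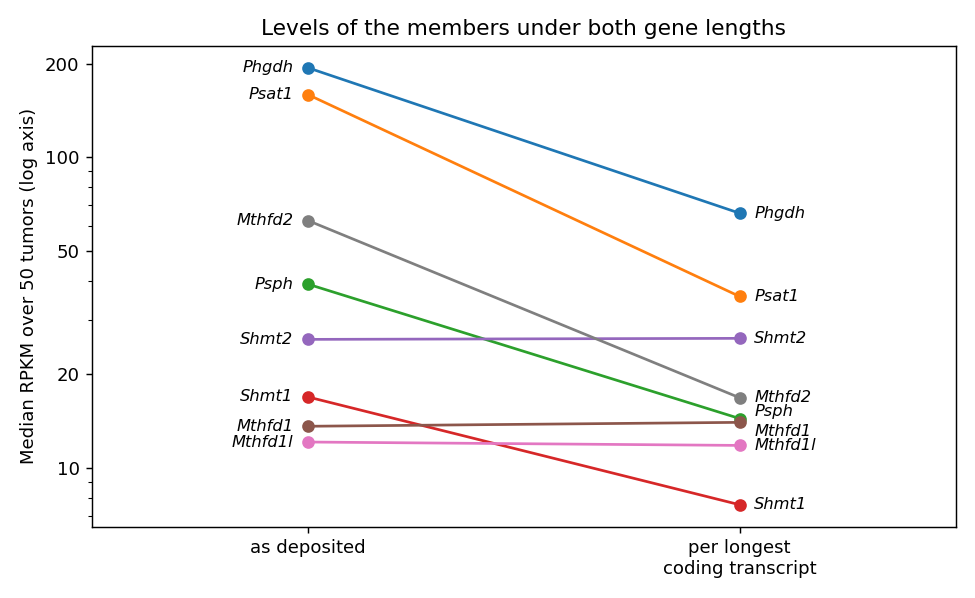
Median RPKM of each member over the 50 tumors on a log axis, as deposited (left) and recomputed per longest coding transcript (right), with a line joining both values of a gene. Phgdh goes from 194.2 to 66.0 and Psat1 from 159 to 35.6, while Shmt2 stays at 25.9 and 26.1 and so passes Mthfd2 and Psph.

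None of the 8 members passed the test in any comparison between groups. Each group was compared with vehicle, glargine and X10 were compared with insulin, and X10/IGF1 (20 tumors) was set against the other 30 tumors, by limma on log2(RPKM + 0.5) with Benjamini-Hochberg adjustment over the 16733 genes tested. The share of all tested genes with an adjusted p under 0.05 was 0% for insulin, 0% for glargine, 0.0657% (11 genes) for X10 and 0.00598% (1 gene) for IGF1 against vehicle. It was 0.155% (26 genes) for X10/IGF1 against the other groups, 0% for glargine and 0.102% (17 genes) for X10 against insulin, and 0.102% (17 genes) in the F test over all 5 groups. At an unadjusted p under 0.05, limma called 1 member in insulin and 1 in IGF1 tumors against vehicle, 1 in X10/IGF1 against the rest and 1 in the F test, where 11.1%, 8.84%, 10.5% and 13.1% of all genes were called. In the other comparisons no member had an unadjusted p under 0.05, beside 6.23% of all genes for glargine and 11% for X10 against vehicle, and 3.96% for glargine and 11.3% for X10 against insulin. The groups overlapped for every member in every comparison with vehicle. For how many of all tested genes they overlapped was not counted, so this is not a trait of the members.

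Phgdh (ENSMUSG00000053398, chr3:98313170-98339990, minus strand), the gene of the committed step of serine synthesis, had the largest difference of the 8. Its values were 83.5, 133 and 244 RPKM (lowest, median and highest) in vehicle tumors, 121.6, 197.4 and 336.7 RPKM in insulin, 94.9, 168 and 277 RPKM in glargine, 83.9, 146 and 349 RPKM in X10 and 109, 213 and 413 RPKM in IGF1 tumors. The IGF1 group was highest by median, and 4 of its 10 tumors lay above the highest vehicle tumor and none below the lowest. Against vehicle, the log2 fold change in IGF1 tumors was 0.82 (SE 0.25, 95% interval 0.32 to 1.32, unadjusted p = 0.00174, limma adjusted p = 0.303), and 9 of 10 tumors were above the vehicle mean. In insulin tumors it was 0.57 (SE 0.25, 0.07 to 1.07, unadjusted p = 0.0264, limma adjusted p = 0.392), again with 9 of 10 tumors above the vehicle mean. In glargine and X10 tumors it was 0.34 and 0.23, with intervals from -0.16 to 0.83 and from -0.27 to 0.73, and the X10 value was 0.13 without X10_95. The F test over all 5 groups gave an unadjusted p of 0.0197 and an adjusted p of 0.306. All these comparisons share the vehicle tumors, whose Phgdh median was the lowest of the 5 groups.

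Psat1 (ENSMUSG00000024640, chr19:15904678-15947337, minus strand), the aminotransferase of the pathway, ran from 110 to 243 RPKM around a median of 155 in vehicle, from 114.8 to 207.3 in insulin (SD 28.8),, from 108 to 328 around 155 in glargine, from 94.6 to 240 around 133 in X10 and from 98.7 to 345 around 196 RPKM in IGF1 tumors. IGF1 tumors were the most dispersed, with 4 of 10 above every vehicle tumor and 1 below all of them. The log2 fold change of IGF1 against vehicle was 0.37 (SE 0.19, 95% interval -0.02 to 0.75, limma adjusted p = 0.6), and those of the other 3 groups lay between -0.12 and 0.10.

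Psph (ENSMUSG00000029446, chr5:129765558-129787449, minus strand), the phosphatase that completes serine synthesis, had medians of 39.3 RPKM in vehicle (29.0 to 60.1), 36.7 in insulin (26.0 to 64.6), 33.0 in glargine (29.3 to 54.4), 43.5 in X10 (24.2 to 60.2) and 44.2 RPKM in IGF1 tumors (32.0 to 157). The IGF1 range rested on IGF1_158 (157 RPKM) and IFG1_132 (96.3 RPKM), and the remaining 8 IGF1 tumors lay inside the vehicle range. In X10/IGF1 together, 15 of 20 were above the mean of the other 30, with a log2 fold change of 0.30 (SE 0.13, 95% interval 0.04 to 0.56, unadjusted p = 0.0255, limma adjusted p = 0.375). Against vehicle alone it was 0.38 for IGF1 (-0.03 to 0.78), and 0.20 (SE 0.18) without IGF1_158. For X10 it was 0.04 (-0.36 to 0.44), and 0.01 (SE 0.21) without X10_95.

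Shmt2 (ENSMUSG00000025403, chr10:127517123-127522444, minus strand), the mitochondrial hydroxymethyltransferase, had its highest median in vehicle tumors, at 33.6 RPKM (19.8 to 39.4). Medians were 26.4 RPKM in insulin (17.6 to 34.4), 24.7 in glargine (19.4 to 53.8), 21.1 in X10 (15.4 to 128.1) and 28.6 RPKM in IGF1 tumors (19.2 to 96.7). Of the 10 X10 tumors, 5 were below every vehicle tumor, while 1, X10_95, was 128.1 RPKM against 33.2 RPKM for the next X10 tumor. The log2 fold change of X10 against vehicle was -0.27 (SE 0.25, 95% interval -0.77 to 0.24, limma adjusted p = 0.729), and -0.52 without X10_95 (adjusted p over all alternatives between 0.262 and 0.917). Shmt1 (ENSMUSG00000020534, chr11:60788104-60811718, minus strand), its cytosolic counterpart, had medians between 15.2 RPKM in X10 and 18.7 RPKM in IGF1 tumors, with single tumors from 6.95 to 32.0 RPKM. Its fold changes against vehicle lay between -0.03 and 0.25 on the log2 scale, and that of IGF1, 0.25, was 0.16 (SE 0.18) without IFG1_132. By median, vehicle was the highest group for Shmt2 and IGF1 for Shmt1. By the log2 fold changes against vehicle, IGF1 was highest for both genes, with 0.10 (SE 0.25) for Shmt2. Without IGF1_158 that of Shmt2 was -0.07 (SE 0.24). Whether both genes differ in their order of groups was not tested.

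Mthfd2 (ENSMUSG00000005667, chr6:83305691-83325908, minus strand), the mitochondrial dehydrogenase and cyclohydrolase, had medians of 71.7 RPKM in vehicle (39.2 to 109), 57.6 in insulin (49.2 to 100), 57.0 in glargine (mean 65.0, lowest 41.0), 63.9 in X10 (34.4 to 84.2) and 84.5 RPKM in IGF1 tumors (41.0 to 232). The IGF1 tumors were again the most dispersed, with 4 of 10 above every vehicle tumor and an SD of 0.84 on the log2 scale against 0.48 in vehicle. The log2 fold change of IGF1 was 0.23 (SE 0.23, 95% interval -0.24 to 0.70), 0.07 (SE 0.22) without IGF1_158 and 0.12 (SE 0.23) without IFG1_132. That of X10 was -0.33 (SE 0.23, -0.80 to 0.14). Mthfd1l (ENSMUSG00000040675, chr10:3973118-4167081, plus strand), the mitochondrial formate-tetrahydrofolate ligase, had medians between 11.1 and 12.9 RPKM in the 5 groups, and Mthfd1 (ENSMUSG00000021048, chr12:76255298-76319803, plus strand), the trifunctional cytosolic enzyme, between 12.9 and 15.6 RPKM. These 2 genes varied least, with fold changes against vehicle between 0.05 and 0.19 for Mthfd1l and between -0.20 and 0.09 for Mthfd1.

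**Figure D2:**
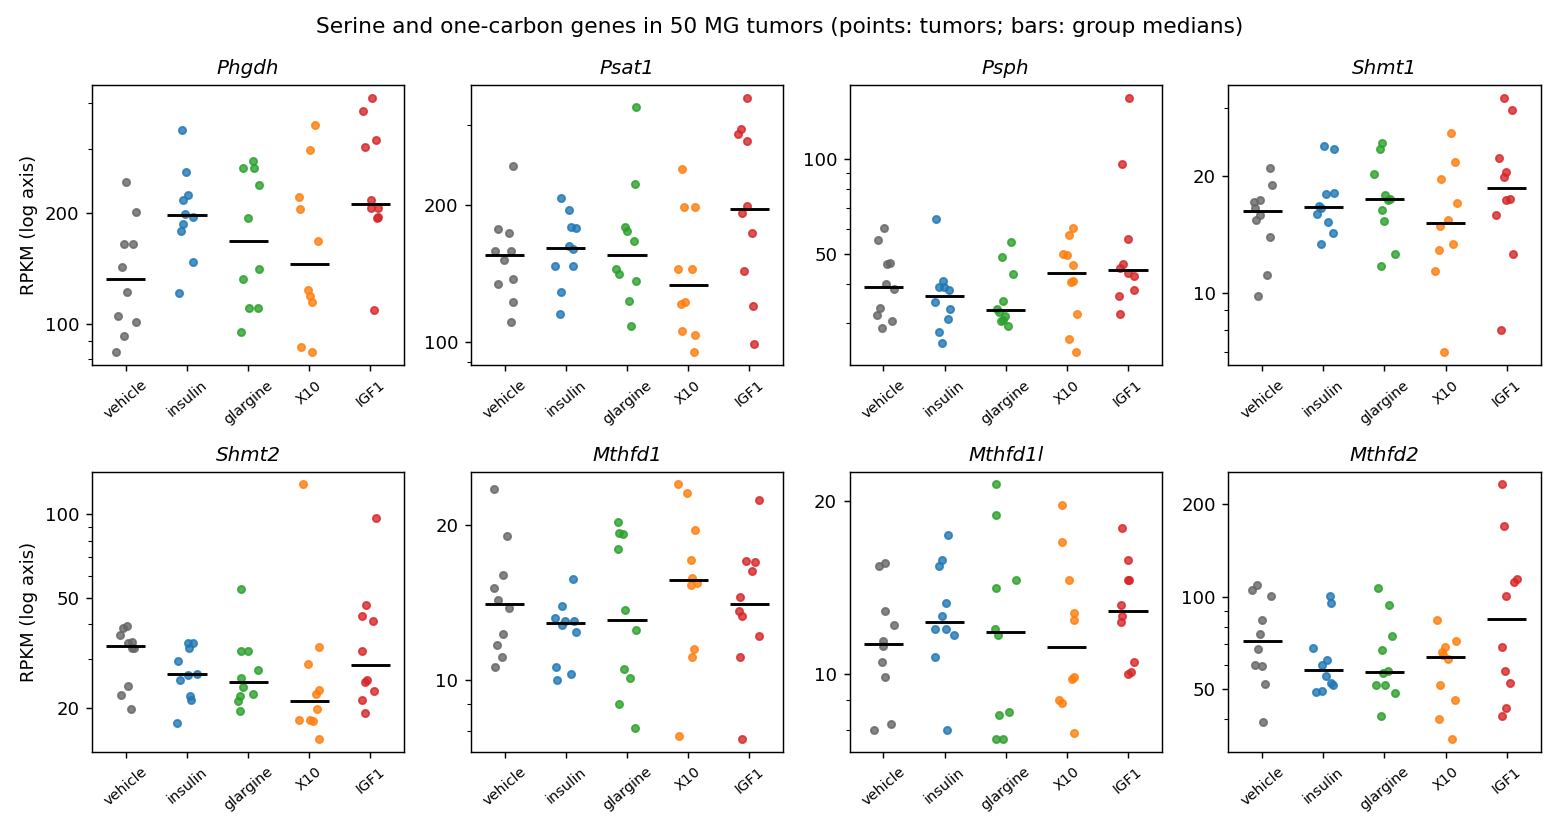
RPKM of the 8 members in each of the 50 tumors, on log axes, by treatment group, with a bar at the group median. The groups overlap for every gene, Phgdh has its lowest median in vehicle tumors, at 133, and single IGF1 or X10 tumors stand far above their groups for Psph (157), Shmt2 (128.1 and 96.7) and Mthfd2 (232).

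The insulin analogues were also compared with insulin itself, since they differ from it in only a few residues. For glargine the log2 fold changes of the 8 members lay between -0.23 and 0.11, and the lowest adjusted p was 0.99. The 95% interval of Phgdh ran from -0.73 to 0.27 and that of Shmt2 from -0.49 to 0.52, and those of the other 6 genes were narrower. For X10 the fold changes lay between -0.34 for Phgdh (95% interval -0.83 to 0.16) and 0.29 for Mthfd1 (-0.06 to 0.65), and the lowest adjusted p was 0.55. The injected doses are not used here, so that the comparison is one of groups and not of equal doses.

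**Figure D3:**
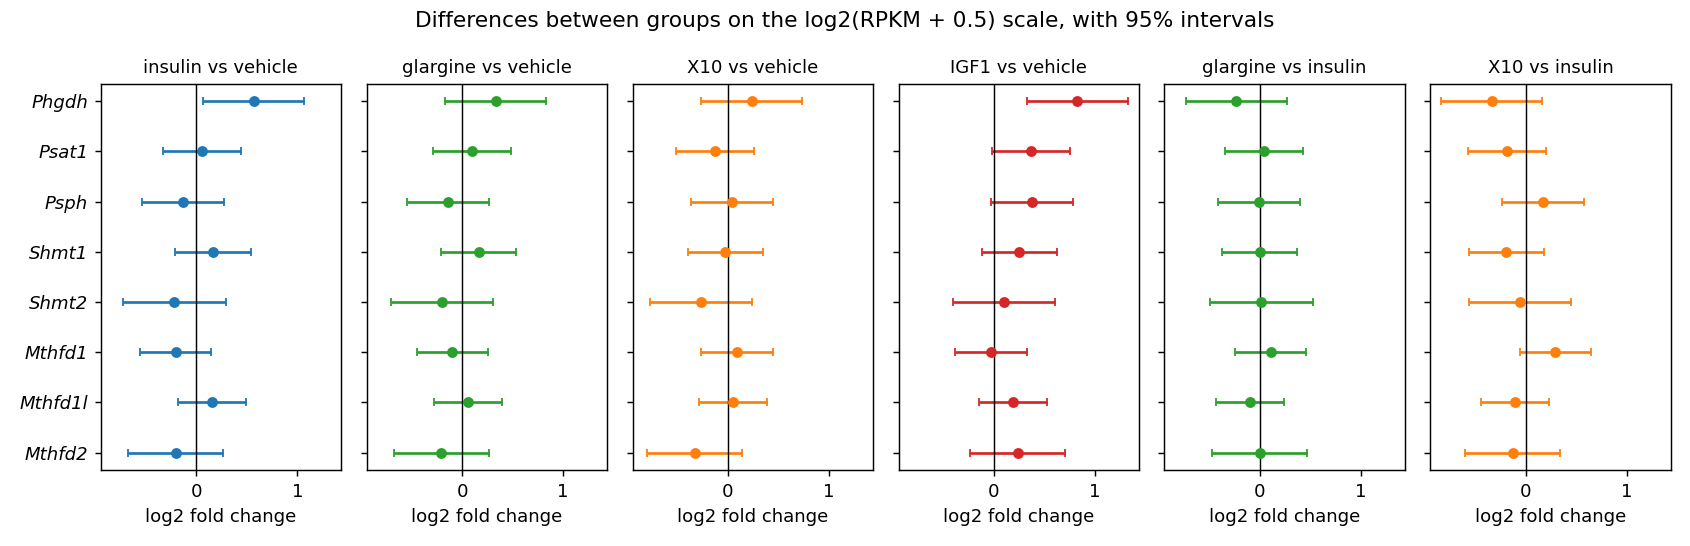
Log2 fold change of each member on the log2(RPKM + 0.5) scale for each group against vehicle and for glargine and X10 against insulin, with 95% intervals from limma. The intervals of Phgdh against vehicle lie above 0 in insulin (0.07 to 1.07) and IGF1 tumors (0.32 to 1.32), the other intervals plotted include 0, and no adjusted p is under 0.05. X10/IGF1 against the rest, where the interval of Psph was 0.04 to 0.56, is not plotted.

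In X10/IGF1 against the other 30 tumors, all 8 members had a positive log2 fold change, between 0.00 for Shmt1 and 0.30 for Psph, with a median of 0.08 beside -0.02 over all tested genes, of which 43.6% were positive. The sign of Shmt1, Shmt2 and Mthfd2 in this comparison turned under some of the alternative settings. Without IGF1_158 the fold change was 0.03 for Psat1 in place of 0.07 and 0.01 for Mthfd2 in place of 0.09, and without X10_95 it was 0.01 for Mthfd1l in place of 0.05. Against vehicle, 7 of the 8 were positive in IGF1 tumors (median 0.24, all genes 0.02, 53.4% of them positive). In insulin tumors 4 were positive (median -0.04, all genes 0.03, 54.5% of them positive). There were also 4 in glargine (median -0.02, all genes 0.02, 54.1%) and 4 in X10 tumors (median 0.01, all genes -0.03, 44.4%). Of the 5 epithelial markers, 5 were lower in IGF1 than in vehicle tumors (median log2 fold change -1.46, 0 with an adjusted and 3 with an unadjusted p under 0.05), with sums of 11.2 to 5100 RPKM in vehicle and 9.01 to 619 RPKM in IGF1 tumors. The 5 leukocyte markers were all higher (median 0.26, 0 with an adjusted or unadjusted p under 0.05), with sums of 133 to 505 and 155 to 585 RPKM. Of the 5 mesenchymal markers, 4 were lower in IGF1 than in vehicle tumors (median -0.59, 1 higher and 1 lower with an unadjusted p under 0.05), and 4 of 5 were lower in X10/IGF1 against the rest (median -0.37, 3 lower with an unadjusted p under 0.05). Of the 5 adipocyte markers, 4 were lower in IGF1 tumors (median -0.72) and 5 in X10/IGF1 (median -0.49), none with an unadjusted p under 0.05. No mesenchymal or adipocyte marker had an adjusted p under 0.05 in these comparisons. With scores of the adipocyte, muscle, epithelial and leukocyte markers in the fit, the difference of Phgdh between IGF1 and vehicle was 0.73 (SE 0.26). In the same fit that of Psat1 was 0.25 (SE 0.21) in place of 0.37, that of Psph 0.20 (SE 0.22) in place of 0.38, that of Shmt1 0.17 (SE 0.20) in place of 0.25, that of Shmt2 0.00 (SE 0.27) in place of 0.10 and that of Mthfd2 -0.04 (SE 0.24) in place of 0.23. Mthfd1 was -0.06 (SE 0.20) in place of -0.03 and Mthfd1l 0.15 (SE 0.18) in place of 0.19.

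Between tumors of a group, the spread of the members was of the size common in these data. Their SD within groups on the log2 scale was 0.58 for Shmt2, 0.57 for Phgdh, 0.53 for Mthfd2, 0.46 for Psph, 0.44 for Psat1, 0.42 for Shmt1, 0.40 for Mthfd1 and 0.38 for Mthfd1l, beside a median of 0.41 over all tested genes. The treatment group accounted for 21.5% of the variance of Phgdh and for between 3.8% and 15.8% of that of the other members, beside a median of 9.3% over all tested genes. Over all 50 tumors, the highest and lowest differed 8.3-fold for Shmt2, 6.8-fold for Mthfd2 and 6.5-fold for Psph, but only 2.8-fold for Mthfd1l.

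Several members had their highest values in the same tumors. IGF1_158 was among the 5 highest of the 50 tumors for 6 members, with 379.6 RPKM of Phgdh, 344.8 of Psat1, 156.7 of Psph, 96.7 of Shmt2, 18.0 of Mthfd1l and 232.4 RPKM of Mthfd2. IFG1_132 was among the 5 highest for 6 members too, with 413.4 RPKM of Phgdh, 276.9 of Psat1, 96.3 of Psph, 32.0 of Shmt1, 43.0 of Shmt2 and 169.8 RPKM of Mthfd2. IGF1_135 and X10_95 followed with 4 members each. For how many of all tested genes these tumors were among the 5 highest was not counted. The fold change of Phgdh in IGF1 tumors was 0.75 (SE 0.25) without IGF1_158 and 0.74 (SE 0.25) without IFG1_132.

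Most of the members were positively correlated across the 50 tumors. Of the 28 pairs of members, 20 were correlated with an adjusted p under 0.05, all 20 positively (Pearson r of log2 values, permutation test with 100000 permutations, two-sided, adjusted over 68 relations). Among all pairs of tested genes, 10.5% had an r of at least the 0.33 of the lowest of these 20 pairs. The 15 pairs among Phgdh, Psat1, Psph, Shmt1, Shmt2 and Mthfd2 were all among these 20. Mthfd1 and Mthfd1l were related more weakly, with r between 0.14 and 0.42 to the other members. A correlation across tumors shares library and depth between both genes of a pair. With the library size regressed out, 20 pairs passed, and with the group means removed 19.

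The strongest relation was that of Psat1 and Psph, the consecutive enzymes at the end of serine synthesis. Over the 50 tumors r was 0.74 and Spearman's rho 0.72, both with a permutation p of 1e-05, the smallest that 100000 permutations can give, and an adjusted p of 0.00017. Without the 2 tumors most extreme in Psat1, glargine_62 and IGF1_158, r was 0.70. Within the groups it was 0.78 in vehicle, 0.85 in insulin, 0.84 in glargine, 0.79 in X10 and 0.72 in IGF1 tumors, so this pair held in each treatment group. With group means removed, Psph was the third most similar of 16732 genes to Psat1, and Psat1 the most similar of all genes to Psph.

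Psat1 and Mthfd2 had an r of 0.69 and a rho of 0.64 (permutation p 1e-05 and adjusted p 0.00017 for both), and an r of 0.61 without glargine_62 and IGF1_158. Within groups their r was 0.01 in vehicle, 0.39 in insulin, 0.66 in glargine, 0.84 in X10 and 0.89 in IGF1 tumors. Phgdh and Psat1 had an r of 0.62 and a rho of 0.61 (permutation p 1e-05 and adjusted p 0.00017 for both), and an r of 0.60 without X10_105 and Untreated_197, with 0.09 in vehicle, 0.75 in insulin, 0.35 in glargine, 0.88 in X10 and 0.72 in IGF1 tumors. These 2 pairs thus had an r near 0 within the vehicle tumors, and whether they differed between groups was not tested. Psph and Mthfd2 (r 0.63, rho 0.50, permutation p 2e-05 and 0.00037, adjusted p 0.000272 and 0.00235) had an r of 0.37 without IFG1_132 and IGF1_158. Shmt2 and Mthfd2, the consecutive mitochondrial enzymes, had an r of 0.58 and a rho of 0.54 (permutation p 5e-05 for both, adjusted p 0.000425 and 0.000567), and an r of 0.59 without X10_95 and IGF1_158. Within the groups their r was 0.90 in IGF1, 0.66 in insulin, 0.48 in glargine, 0.47 in vehicle and 0.18 in X10 tumors. Of the 20 pairs, 15 passed under each of 10 alternatives. Psat1 with Shmt2 and Psph with Shmt2 passed under 9 of 10 each, with rho of 0.39 and 0.35 (permutation p 0.00475 and 0.012, adjusted p 0.0154 and 0.0315). Their r was 0.58 and 0.55 without X10_95, and 0.30 and 0.29 (adjusted p 0.0905 and 0.0913) without the 2 tumors most extreme in Psat1 or in Psph. Shmt2 with Mthfd1 passed under 8, Shmt1 with Mthfd1 under 6 and Shmt2 with Mthfd1l under 5 of 10 alternatives.

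Of 40 relations of a member with 5 partner genes, 10 passed, all positive, and 4 of the 10 passed under each of 10 alternatives. Over all tested genes, 10.0% of the relations with these partners had an r of at least the 0.32 of the lowest of the 10. This share was 11.1% for Atf4, 7.88% for Myc, 1.51% for Asns, 24.5% for Mki67 and 5.11% for Igf1r, beside 2, 3, 4, 1 and 0 of the 8 members. Partners were Atf4, its target Asns (asparagine synthetase), the growth regulator Myc, the proliferation marker Mki67 and the receptor gene Igf1r. Mthfd2 followed Asns, with an r of 0.53 and a rho of 0.59 (permutation p 0.00024 and 2e-05, adjusted p 0.00136 and 0.000272), and an r of 0.41 without IFG1_132 and IGF1_158. Within the groups this r was 0.02 in vehicle and between 0.59 and 0.82 in the other groups, and whether the groups differed was not tested. In 1 vehicle tumor, Untreated_182, Asns was 1083.3 RPKM, beside 138.0 RPKM in the next. Without this tumor, left out after its value was seen, r was 0.37 in the other 9 vehicle tumors and 0.69 over 49 tumors. Over these 49, the r of Asns was 0.37 with Phgdh (0.16 over 50) and 0.48 with both Psat1 and Psph (0.37 and 0.36 over 50). It was 0.41 with Shmt2 (0.36 over 50), 0.14 with Shmt1 (0.18), 0.07 with Mthfd1l (0.04) and -0.08 with Mthfd1 (-0.06). With Atf4 mRNA, Mthfd2 had an r of 0.45 and a rho of 0.44 (permutation p 0.00093 and 0.00171, adjusted p 0.00376 and 0.00727), and an r of 0.35 without these 2 tumors. Shmt1 followed Mki67 (r 0.53, rho 0.42, permutation p 8e-05 and 0.00219, adjusted p 0.000604 and 0.00827), with an r of 0.43 without X10_100 and IGF1_160 and of 0.31 to 0.79 within the groups. The r of Shmt2 with Mki67 was -0.09. Mthfd1 followed Myc (r 0.43, rho 0.45, permutation p 0.00136 and 0.00137, adjusted p 0.00487 and 0.00621), with an r of 0.39 without X10_111 and IGF1_160 and of 0.14 to 0.88 within the groups. Of the others, Shmt2 with Myc (r 0.40) passed under 9 of 10 alternatives, Psat1 with Asns (0.37) under 8, Shmt2 with Asns (0.36), Psph with Asns (0.36) and Shmt1 with Myc (0.34) under 7 each and Psat1 with Atf4 (0.32) under 3. Without IFG1_132 and IGF1_158, the r of Psph with Asns was 0.14 (adjusted p 0.448). No relation of Igf1r with the 8 members passed, with r between -0.19 and 0.14 over the 50 tumors. Within the groups it ran from -0.74 for Shmt1 in X10 to 0.57 for Mthfd1l in IGF1 tumors. Whether these relations differed between groups was not tested.

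**Figure D4:**
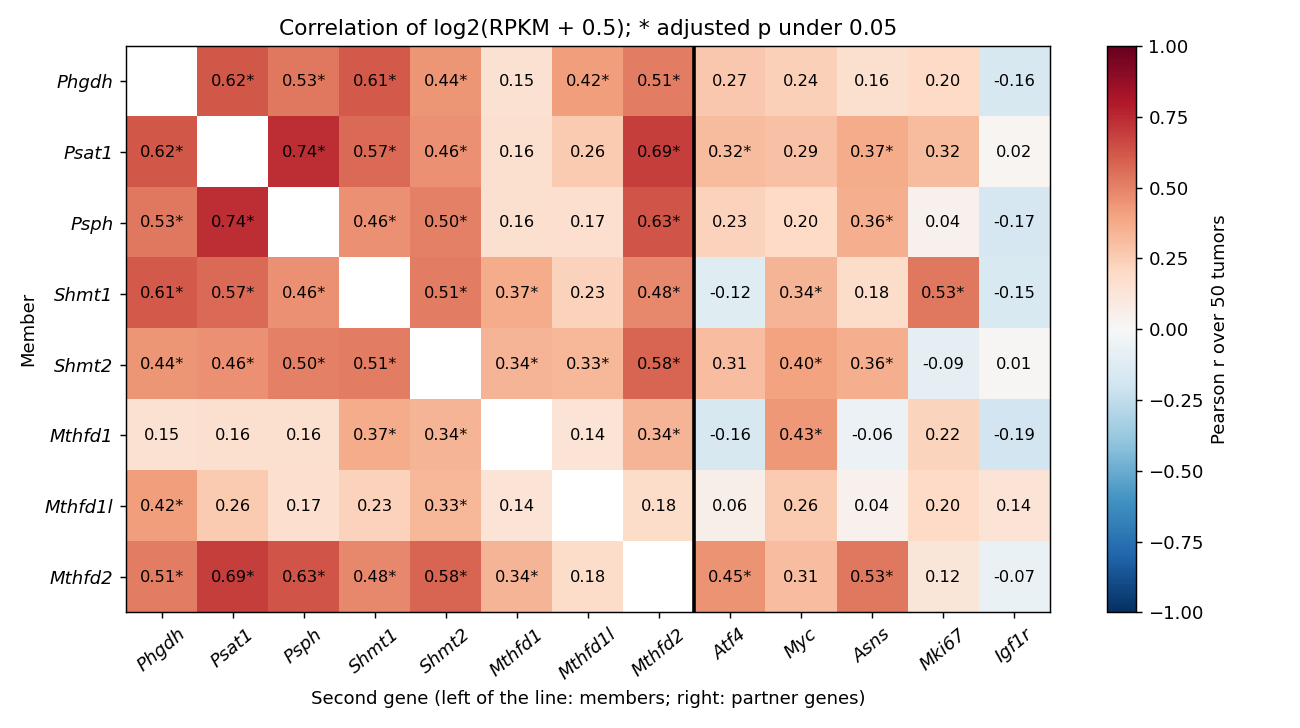
Pearson r of log2(RPKM + 0.5) over the 50 tumors for each member (rows) with the other members (left of the line) and the 5 partner genes (right of it), with an asterisk where the adjusted permutation p is under 0.05. Phgdh, Psat1, Psph, Shmt1, Shmt2 and Mthfd2 form a block with r between 0.44 and 0.74, and Mthfd1 and Mthfd1l are paler.

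The genes most like each member, by r with group means removed, were of different kinds. Beside the pseudogene copies, Psat1 was most like Aldh18a1 (r 0.76), which starts proline synthesis, and Psph was like Nars, an asparaginyl-tRNA synthetase, and Slc7a3, a cationic amino acid transporter (r 0.71 each). Mthfd2 was most like Rad18 (0.73), a DNA damage response gene, Gars (0.71) and Nars (0.70), both aminoacyl-tRNA synthetases. Shmt1 was most like Fanci (0.79) and Exo1 (0.77), both of DNA repair, and Pfas (0.77) of purine synthesis. Mthfd1 was most like Pole2 (0.80), Eif2s1 (0.75) and 2410016O06Rik (0.75), which all lie on chromosome 12 within 7.7 Mb of it. Shmt2 was most like Cdk4 and Xrcc6bp1 (0.83 each), which lie within 0.65 Mb of it on chromosome 10. Phgdh was most like Nop14 (0.72) and Grwd1 (0.68), both of ribosome assembly, and Mthfd1l like Mapk7 (0.60), Zbtb2 (0.58, 0.39 Mb away) and Khsrp (0.57).

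For Shmt2 this likeness to its chromosomal neighbours was examined further. Its median r with the 78 tested genes within 2 Mb, pseudogenes left out, was 0.53, beside 0.14 with 529 genes of chromosome 10 over 20 Mb away and -0.01 with 13821 genes of other chromosomes. Of the 20 genes most like Shmt2, 14 lay within 2 Mb and 19 on chromosome 10. Without X10_95, its highest tumor, the median r with these neighbours was 0.26. For the other members the median r with the genes within 2 Mb lay between 0.03 for Phgdh and 0.32 for Shmt1. Without the highest tumor of each member, it lay between 0.03 for Phgdh and 0.29 for Psph. Of the 20 genes most like each, 14 lay on its own chromosome for Mthfd1, 10 for Mthfd1l and 10 for Mthfd2. For the rest this number was between 1 and 5, and at most 1 of the 20 lay within 2 Mb. These are descriptions over genes, which share tumors and libraries.

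In X10_95 the neighbours of Shmt2 were high as well. Shmt2 was 2.28 above its median over the 50 tumors on the log2 scale, and the median of its 78 neighbours was 1.69, with 75 of them above their own median and 62 by at least 1. Cdk4, the cyclin-dependent kinase gene 0.459 Mb away, had 1223.8 RPKM in X10_95 and a median of 218.3 RPKM. Tsfm had 183.2 RPKM against a median of 30.0, and Atp5b had 3973.9 RPKM against a median of 924.9. Most tested genes between 2 and 10 Mb from Shmt2 were above their medians in this tumor too. Genes of chromosome 10 over 20 Mb away had a median of 0.12 and genes of other chromosomes one of -0.04. In IGF1_158, where Shmt2 was 1.88 above its median, its neighbours had a median of 0.34, and 9 of 78 were higher by at least 1, most of all Avil, by 7.63, followed by Ddit3, a gene of the Atf4 pathway, by 2.00, Lrig3 by 1.92 and Stat2 by 1.72. Ddit3 was as high in X10_95, at 2.04 above its median. In glargine_62, where Shmt2 was 1.04 above, their median was 0.14. The high Shmt2 of X10_95 was thus shared by its neighbours, and that of IGF1_158 and glargine_62 much less so. DNA copy number was not measured here.

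**Figure D5:**
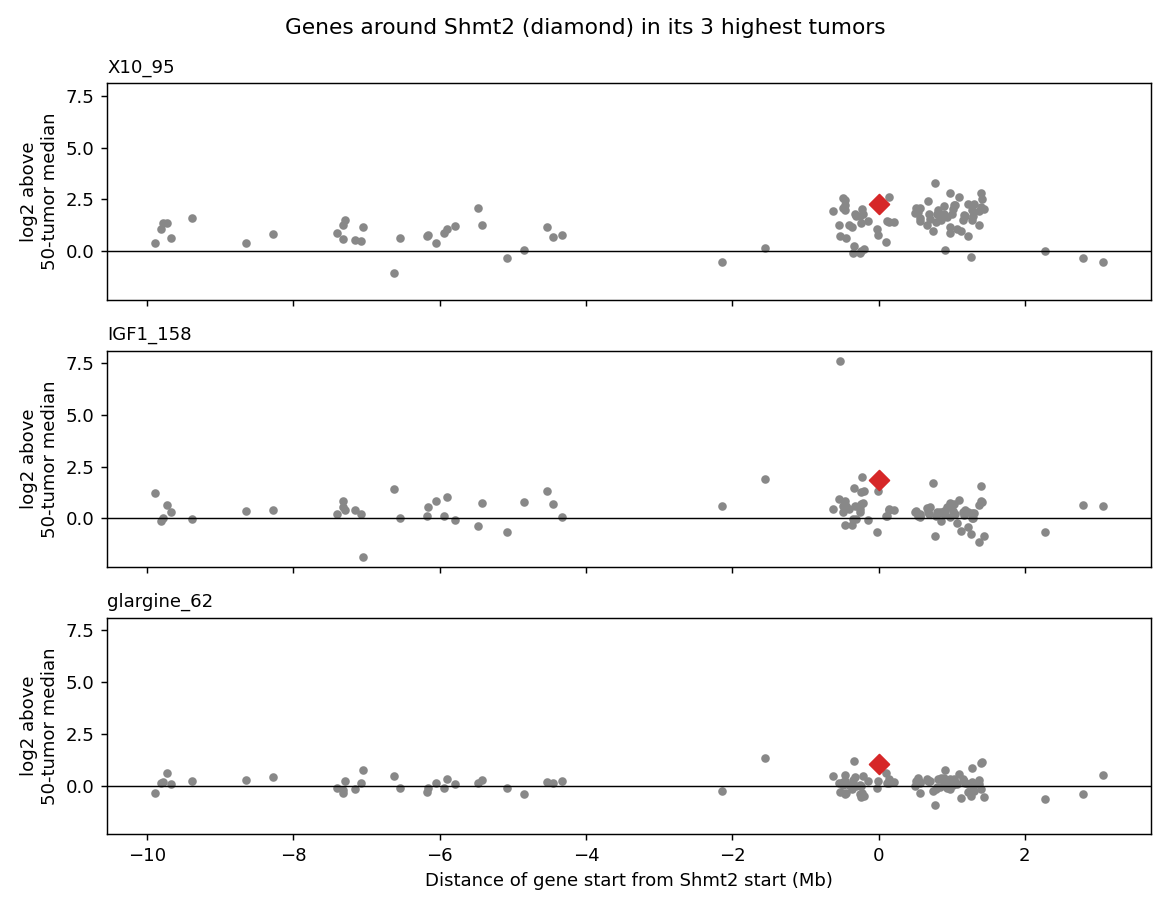
Log2 values above each gene's 50-tumor median (vertical) for the genes within 10 Mb of Shmt2, by distance of their start from that of Shmt2 in Mb (horizontal), in its 3 highest tumors; the diamond is Shmt2. In X10_95 nearly all genes within 2 Mb are high, with a median of 1.69 beside 2.28 for Shmt2, whereas their medians in IGF1_158 and glargine_62 are 0.34 and 0.14. Most genes plotted farther away are above 0 in X10_95 too.

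In the highest tumor of each other member, the gap between the member and the median of its neighbours was of varied size. In IGF1_158 the genes within 2 Mb of Psph had a median of -0.07 while Psph was 1.99 above its median. Those around Mthfd2 had a median of 0.43 beside 1.89 for Mthfd2, and those around Psat1 a median of -0.23 beside 1.12. In IFG1_132 the neighbours of Phgdh had a median of 0.21 beside 1.09 for Phgdh, and those of Shmt1 a median of 0.47 beside 0.90 for Shmt1. For Mthfd1 in X10_111 the neighbours had a median of 0.42 beside 0.79. For Mthfd1l in glargine_67 the neighbours were nearly as high as the gene, at 0.62 beside 0.79.

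The 64 other tested genes of the fixed pathway lists were examined next. None of these genes of folate metabolism and transport, glycine cleavage, serine transport and use, purine synthesis, the methionine cycle, the Atf4 pathway and proliferation had a limma adjusted p under 0.05 in any comparison. At an unadjusted p under 0.05, limma called 8 of 64 in insulin (12.5%), 5 in glargine (7.81%), 7 in X10 (10.9%) and 2 in IGF1 tumors (3.12%) against vehicle. These shares stand beside 11.1%, 6.23%, 11% and 8.84% of all tested genes. The lowest p was that of Folr2, a folate receptor known from macrophages. Its RPKM was 12.4 by median in vehicle tumors (4.93 to 41.9) and 37.9 in IGF1 tumors (18.7 to 59.2), a log2 fold change of 1.36 (SE 0.31, unadjusted p = 6.87e-05, limma adjusted p = 0.213). Folr2 had the lowest p of the 64 genes in insulin and glargine tumors against vehicle too. Its log2 fold change there was 1.01 (SE 0.31, limma adjusted p = 0.298) and 1.13 (SE 0.31, limma adjusted p = 0.614). The vehicle tumors are shared by these comparisons. The leukocyte marker sums given above were also lowest in vehicle tumors by median, and their part in these differences of Folr2 was not tested.

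The other most abundant genes of these lists had medians in IGF1 tumors inside their vehicle range. Paics, of purine synthesis, had medians of 188 RPKM in vehicle and 191 RPKM in IGF1 tumors, and Adsl of the same pathway 53.9 and 59.0 RPKM. Ahcy of the methionine cycle had 84.2 and 72.6 RPKM and Mat2b 39.6 and 39.8 RPKM. Fpgs, which adds glutamates to folate, had 37.8 and 34.6 RPKM, and Tyms, which makes thymidylate, had 23.0 and 24.6 RPKM. Slc19a1, the reduced folate carrier, had 15.7 and 16.0 RPKM. Gcsh and Dld of glycine cleavage had 42.3 and 41.7, and 27.3 and 27.6 RPKM. Sptlc2, which uses serine for sphingolipids, had means of 155 (SD 25.5) and 151 (SD 33.9) RPKM, and the amino acid transporter Slc1a5 had medians of 41.5 and 43.4 RPKM. Aars, an alanyl-tRNA synthetase of the Atf4 list, had medians of 309 and 306 RPKM. Top2a and Cdk1 of the proliferation list had 321 and 333 RPKM, and 96.7 and 114 RPKM.

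RefSeq promoters (GRCm38, 250 bases before to 50 bases after a start) were available for all 8 genes, in 9 windows. They were searched on both strands for the core of the C/EBP-ATF response element, TGATGNAA, through which Atf4 is known to act, and for the E-box CACGTG, through which Myc is known to act. None of the 9 windows held either, beside 3.97% and 7.15% of all 32851 promoter windows. This says only that these letters are not in these windows.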

How the data were processed

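Poly-A RNA of 50 MG tumors was sequenced on the Ion Proton. The authors aligned the reads to GRCm38 (Ensembl) with TopHat2 2.0.10 and Bowtie2, counted them per gene with HTSeq 0.6.1 and deposited RPKM values, which are not log-transformed. The study's own differential expression analysis was not repeated, and the table holds no column of comparisons. Low values of a gene are whole-number multiples of 1 read, and from these multiples library sizes and the lengths used were recovered. At least 96% of low values in every tumor came out as whole reads. Of 16310 genes with a recovered length in GENCODE M21, 60.1% had a length within 2% of the median length of their annotated transcripts. The library sizes are estimates from these steps.

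The filter was a mean of 0.5 RPKM or more, and the genes that passed were tested with limma 3.58.1 (R 4.3.3) on log2(RPKM + 0.5), with all 5 groups in the fit, an intensity trend and Benjamini-Hochberg adjustment. On this scale the change of low genes is understated. The procedure was tested on simulated data. Each tumor is from another mouse, and p-values measure the spread between tumors. The labels give each tumor a sequence sample id, whose numbers run in group order. What these numbers stand for is not stated, and they cannot be told apart from the groups. The most similar pair of tumors had a Pearson r of 0.982, so no library was counted as deposited again. Correlations were tested by permutation (Python 3.11.15, numpy 2.4.6). Copies were sought with blastn 2.17.0. Named are the 8 members, in the other lists every gene past the test and the 2 genes with the highest mean, the 3 genes most like each member, and 5 partner genes. Avil, Ddit3, Lrig3, Stat2, Tsfm and Atp5b were singled out after their values were seen. The members and lists were chosen with earlier results of these data known. Alternatives were other pseudocounts (0.1 and 1), no filter, quantile normalization, recovered reads with voom, only the groups compared, marker scores as covariates and left-out tumors. Ftcd and Sds were under the filter.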

Additional observations from a re-analysis of the deposited data

Results flagged for a closer look

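In 3 of 40 sets of 10 tumors (8 members in 5 groups), 1 tumor stood apart from its group by Dixon's criterion on log2 values, which chance alone gives in about 1 of 20 sets. Shmt2 was 128.1 RPKM in X10_95 and 33.2 RPKM in the next X10 tumor. Shmt2 was 53.8 RPKM in glargine_62 and 32.1 RPKM in the next glargine tumor. Psph was 64.6 RPKM in insulin_18 and 40.8 RPKM in the next insulin tumor. On RPKM, a scale added after seeing the data, 7 sets had such a tumor, these 3 and 4 more. The 4 were Shmt2 in IGF1_158 (96.7 RPKM, next 47.2), Psph in IGF1_158 (156.7, next 96.3), Psat1 in glargine_62 (328.2, next 222.2) and Psat1 in Untreated_189 (243.4, next 177.3). In X10_95 the chromosomal neighbours of Shmt2 were high as well, with a median of 1.69 on the log2 scale, and in glargine_62 their median was 0.14.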

How the results depend on the processing

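No member was called under any alternative, and member pairs past the test numbered between 16 and 20 of 28. The number of genes called was less stable. For X10 against vehicle it was 24 without a filter, 5 with recovered reads, 4 with only the groups compared and 1 with library size as a covariate, and 7 and 10 without X10_95 and without IGF1_158. For IGF1 against vehicle it was 0 with only the groups compared, without IFG1_132 and with marker scores as covariates. For insulin against vehicle it was 2 with quantile normalization and 3 with library size. For X10/IGF1 against the other groups it was 11 without a filter, 82 without IFG1_132 and 10 with library size. For X10 against insulin it was 8 without a filter, 31 with only the groups compared and 6 with library size, and 5 and 17 without X10_95 and without IGF1_158. In the F test it was 0 without a filter, 6 with quantile normalization, 0 with recovered reads, 27 without IFG1_132 and 0 with library size, and 2 and 0 without X10_95 and without IGF1_158. The causes were not tested.

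The sign of a small log2 fold change turned in 24 cases, each with an adjusted p of at least 0.918, and was kept in 592. Against vehicle in X10 tumors, Psph was -0.01 with marker scores and -0.053 with library size, Shmt1 0.028 with quantile normalization and 0.017 with recovered reads, and Mthfd1l -0.031 without X10_95 and 0.049 without IGF1_158. Without X10_95, Phgdh was 0.132 in place of 0.233, Shmt1 -0.111 in place of -0.026 and Mthfd1 0.027 in place of 0.091. In IGF1 tumors, Shmt2 was 0.10 without X10_95 and -0.071 without IGF1_158, Mthfd1 -0.031 and 0.005, and Mthfd2 -0.035 with marker scores. In X10/IGF1 against the others, Shmt1 was -0.001 with pseudocount 0.1, -0.043 without IFG1_132, -0.016 with marker scores, -0.002 with library size, -0.041 without X10_95 and -0.014 without IGF1_158. There, Shmt2 was -0.017 with marker scores, -0.075 without X10_95 and -0.032 without IGF1_158, and Mthfd2 -0.019 with marker scores. Between glargine and insulin, Psph was 0.087 and Mthfd2 0.044 with marker scores, Shmt1 0.008 with quantile normalization and Mthfd2 0.005 with recovered reads. Between X10 and insulin, Shmt2 was 0.002 with quantile normalization and 0.013 with recovered reads, and -0.31 without X10_95.

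Weak correlations that turned were Psat1 with Igf1r (-0.037), Shmt2 with Mki67 (0.048) and Mthfd1 with Asns (0.039) without the 2 extreme tumors, Psph with Mki67 (-0.003) after quantile normalization, Shmt2 with Mki67 without X10_95 (0.002, and -0.07 without IGF1_158), Mthfd1l with Asns without IGF1_158 (-0.042, and 0.045 without X10_95) and Mthfd2 with Igf1r (0.048) with marker scores. In windows of the 250 bases before the start, the response element core was in 3.45% and the E-box in 6.02% of promoters. Library size as a covariate and leaving out X10_95 or IGF1_158 were chosen after seeing the data. No paired analysis was possible because mouse numbers are not shared between groups.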
